A study of Homo sapiens with 30 samples.

Results

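GDF15, growth differentiation factor 15, was followed across the 10 combinations of genotype and treatment of this series of HCT116 cells. Its members are all probes annotated to GDF15 in the raw table, and 1 probe met that rule, ILMN_2688, so the account concerns 1 of the 17283 genes that the probes of the table name. HCT116 is an established colon adenocarcinoma line, used here in a form that lacks p53 (p53KO) and in the isogenic wild-type form (WT). The groups of each genotype were untreated cells, cells given 1, 10 or 100 nM actinomycin D, and cells given 4 µM nutlin-3, and the treatments lasted 16 hours. Each group had 3 Illumina bead arrays of total RNA, 30 in all. The sources used here do not give the number of p53KO clones, nor whether a group's arrays stand for separate cultures. The p-values therefore reflect array-to-array spread, possibly a technical one.

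GDF15 is a secreted stress cytokine and a distant member of the TGF-beta superfamily, made as a precursor that proprotein convertases cut to release the active dimer. It acts in the hindbrain through GFRAL, a receptor of the GDNF family that signals with the RET kinase, and reduces appetite. Its gene is known as a direct target of p53, and also of the integrated stress response, in which ATF4 and DDIT3 (CHOP) raise the transcription of stress genes. Actinomycin D binds DNA and blocks transcription, that of ribosomal RNA at the lowest doses, and nutlin-3 frees p53 from its inhibitor MDM2. The comparisons therefore ask how GDF15 RNA follows drug dose and p53 genotype.

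The stretch before the gene's start is shown because p53, ATF4, EGR1 and SP1 are the regulators usually named for GDF15. The sequence is RefSeq's on GRCh38.p14, chr19:18385908-18386157, plus strand, the 250 bases upstream of the start, with SP1 motif matches (GGGCGG or its complement) in capitals.
GDF15 promoter: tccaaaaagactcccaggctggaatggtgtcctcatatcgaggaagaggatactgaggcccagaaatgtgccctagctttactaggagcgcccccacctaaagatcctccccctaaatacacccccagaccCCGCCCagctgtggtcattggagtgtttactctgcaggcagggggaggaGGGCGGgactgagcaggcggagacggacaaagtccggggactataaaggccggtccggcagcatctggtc
Of the 7 motifs searched on both strands of this stretch and the 50 bases after the start, 2 had matches. SP1 matched 119 bases upstream on the minus strand and 70 bases upstream on the plus strand, and 44.95% of the 35116 RefSeq promoters of that length held such a match. The E-box CANNTG matched at 114 and 9 bases upstream, the first sharing 1 base with an SP1 match, and 68.7% of promoters held one. The window held no letters that match the p53 half-site (present in 6.63% of promoters), the ATF4 composite element TGATGNAAN (3.61%), the cAMP response element TGACGTCA (1.85%), AP-1 TGANTCA (7.71%) or EGR1 GCGNGGGCG (9.43%). These are descriptions of letters in 1 short window and not of binding.

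The GDF15 probe was detected on all 30 arrays, with a detection p of 0 on each. It was read from 25 to 61 beads per array (median 42), and the standard error over beads was 2.04 to 5.14% of the signal. Raw GDF15 intensity ran from 99.4 to 6296 units, with a median of 630 units. The raw 75th percentile of an array ran from 100.7 to 134.8 units in the 6 arrays at 100 nM and from 133.1 to 305.6 units in the other arrays. Levels below are log2 intensities after background correction and quantile normalization, which makes all arrays share 1 distribution. Without scaling between arrays, the median of all features fell by 0.69 in p53KO and by 0.80 in WT cells at 100 nM, so values at that dose are relative to the other RNAs on the array. Of 15 colon epithelial markers 9 passed the detection filter, EPCAM, KRT8, KRT18 and CDH1 among them, and KRT20, CDH17, CDX1, VIL1, GPA33 and CEACAM5 did not. Of 15 markers of other cell types only CD14, CD68 and COL1A1 passed. The filter asks for detection in any group, and some of these markers were brightest at 100 nM. CD14 stood at 6.59 to 7.19 at that dose and at 4.21 to 5.47 on the other arrays. CDH1 stood at 5.45 to 6.21 and at 4.57 to 5.55.

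The results depend on 4 arrays that stood apart from their groups. A genotype score was taken from 37 genes other than GDF15 that differed between the genotypes, in the same direction, in each state except nutlin, with p53KO near 0 and WT near 1. It lay between -0.08 and 0.05 on 14 of the 15 arrays labelled p53KO and between 0.95 and 1.06 on 14 of the 15 labelled WT. The genotype differences and the points 0 and 1 came from the arrays outside nutlin, whose agreement with their labels is thus built in. The nutlin arrays took no part in those means, but they entered the shared spread behind the calls that chose the genes. The array labelled p53KO nutlin replicate 3 scored 1.03, and the array labelled WT nutlin replicate 3 scored 0.04, so these 2 arrays went against their genotype labels. The first untreated array of each genotype differed from the other untreated arrays of its genotype, and in WT cells GDF15 was among the genes that differed most. It was higher on the first array by 1.20 in p53KO and by 2.49 in WT cells (log2, against the mean of the others), a difference that 252 and 9 of 11526 features, GDF15 included, reached. Integrated stress response genes lay above the other arrays there too, 19 of 21 members in p53KO (median 0.62) and 21 of 21 in WT cells (median 1.62). Targets of p53 in arrest and feedback did so in 11 of 17 (0.58) and 16 of 17 (0.94). Secreted p53 targets, GDF15 included, did so in 8 of 10 (0.61) and 10 of 10 (0.92). Regulators of the GDF15 gene did so in 11 of 12 in each genotype (0.64 and 0.71). Over all 11526 features the medians were -0.03 and -0.02, with 5405 and 5576 above 0. The TGF-beta ligands (0.05 and 0.02) and the receptor and processing list (0.01 and 0.03) lay near 0. The first untreated arrays were run on slide 2 and the other untreated arrays on slide 4, and the third nutlin arrays each had a slide to themselves. GDF15 is given below with all 30 arrays, by label, and with the 26 arrays left without these 4. The first untreated arrays were set aside with their high GDF15 known, so a comparison with untreated cells over 26 arrays depends on that choice and is no independent test. Other genes are given with all 30 arrays, and over 26 arrays where a call was gained or lost or the value moved by more than 1.5 times.

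**Figure D1:**
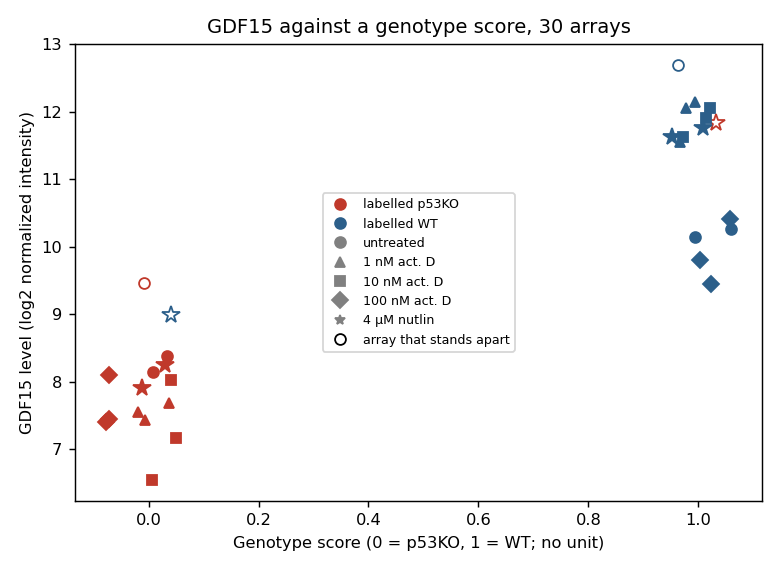
GDF15 level (vertical axis, log2 normalized intensity) against the genotype score from 37 other genes (horizontal axis, no unit) on the 30 arrays. The array labelled p53KO nutlin replicate 3 (open red star) sits at a score of 1.03 among the WT arrays, and the array labelled WT nutlin replicate 3 (open blue star) at 0.04 among the p53KO arrays.

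GDF15 RNA was lower in p53KO than in WT cells in each of the 5 treatments, and the gap was widest at 1 and 10 nM actinomycin D. In such bulk RNA, fewer cells with the transcript and less of it per cell cannot be told apart. In untreated p53KO cells GDF15 stood at 9.46, 8.15 and 8.38, against 12.70, 10.27 and 10.15 in untreated WT cells. At 1 nM it stood at 7.43, 7.68 and 7.55 in p53KO cells, against 11.55, 12.05 and 12.14 in WT cells. At 10 nM it stood at 6.54, 7.17 and 8.02 in p53KO cells, against 11.62, 12.06 and 11.91 in WT cells. The p53KO and WT arrays did not overlap in any of these 3 states, and they were closest in untreated cells. At 100 nM the levels were 7.40, 7.44 and 8.11 in p53KO cells, against 9.45, 9.80 and 10.41 in WT cells, again without overlap. Under nutlin they were 7.90, 8.24 and 11.83 on arrays labelled p53KO, against 11.62, 11.76 and 8.98 on arrays labelled WT. Only under nutlin did the labelled genotypes overlap, through the third arrays.

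**Figure D2:**
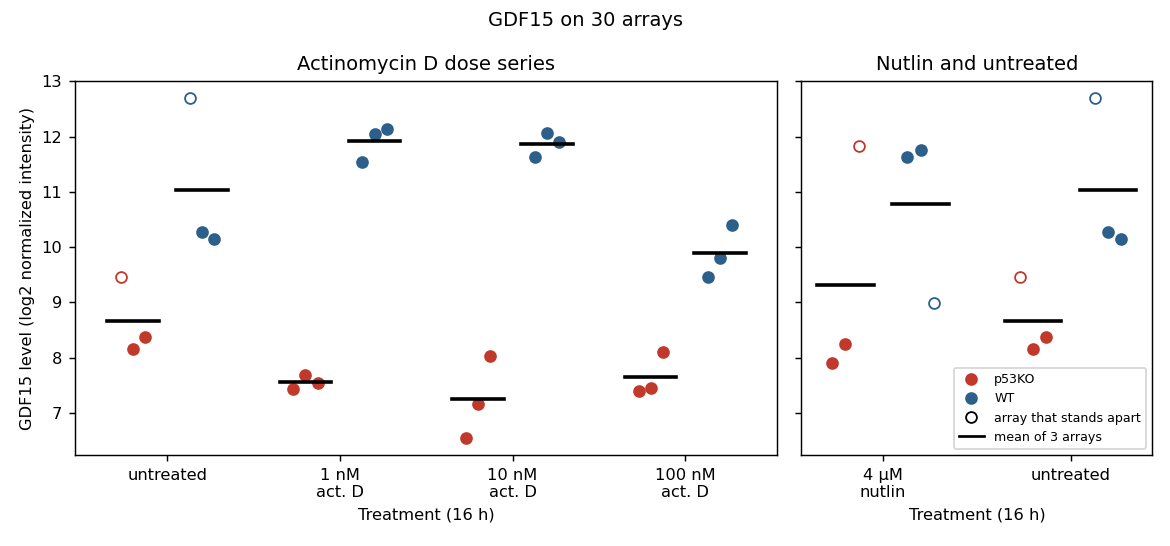
GDF15 level (log2 normalized intensity) on each of the 30 arrays by treatment, p53KO in red and WT in blue, with the mean of 3 arrays as a bar; open circles are the 4 arrays that stand apart. The 3 WT arrays at 1 nM and at 10 nM lie between 11.55 and 12.14, and the p53KO arrays of these doses between 6.54 and 8.02.

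At 1 nM GDF15 was 4.36 ± 0.76 lower in p53KO cells on the log2 scale (log2 difference -4.36 ± 0.76, SE; limma, Benjamini-Hochberg adjusted p = 0.0013), which is 20.55-fold. There, 11.4% of the 11526 features tested were called, that is, had an adjusted p under 0.05. At 10 nM the difference was -4.62 ± 0.76 (adjusted p = 0.000323), or 24.6-fold lower, where 14.2% of features were called. In untreated cells the difference of -2.37 ± 0.76 did not pass (adjusted p = 0.148, 1.28% called), nor did that of -2.24 ± 0.76 at 100 nM (adjusted p = 0.117, 3.68% called). Under nutlin, by label, the difference was -1.47 ± 0.76 (adjusted p = 1), in a comparison in which limma called 0 features and 146 had an unadjusted p under 0.05.

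With 26 arrays GDF15 was called lower in p53KO than in WT cells in each of the 5 treatments. The differences were -1.94 ± 0.34 in untreated cells (adjusted p = 0.00122, 3.48% of features called), -4.36 ± 0.28 at 1 nM (2.17e-10, 22.7% called) and -4.62 ± 0.28 at 10 nM (8.01e-11, 25.6% called). At 100 nM the difference was -2.24 ± 0.28 (adjusted p = 1.08e-05, 9.33% called), and under nutlin it was -3.62 ± 0.34 (2.49e-07, 13.9% called). The residual SD of GDF15 was 1.04 over 30 arrays, above that of 99.95% of features (median 0.23), and 0.38 over 26 arrays, above 96.7% (median 0.19). GDF15 was thus one of the most variable features between arrays of a group, and most of that spread lay in the 4 arrays. No actinomycin D array was left out, so at those doses the differences stayed the same and only the spread shrank. Under nutlin the arrays left out were those through which the labelled genotypes overlapped. The calls gained over 26 arrays therefore depend on which arrays were left out and are no independent test. With the slide as a random block the untreated and 100 nM differences were also called (-2.37 and -2.29, adjusted p = 0.02 and 0.024; 3.94% and 6.26% of features called). They were called too with the slide as a fixed block, a fit that rests on 28 arrays because the third nutlin arrays have no other array on their slides (-2.37 and -2.31, adjusted p = 1.7e-05 and 5.8e-05; 7.76% and 7.77% called).

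Over the 5 treatments together, GDF15 averaged 8.09 in p53KO and 11.10 in WT cells, a difference of -3.01. A two-sided exact permutation test that exchanged arrays between the genotypes within a treatment gave p = 1.6e-05. Without the nutlin groups the difference was -3.40 over 4 treatments (exact permutation p = 1.3e-05, the smallest that this test allows), and without the 4 arrays it was -3.36 (p = 6.9e-06, also the smallest allowed). The form without the 4 arrays was added after seeing the data. The difference had the same sign in 5 of 5 treatments in each form with nutlin and in 4 of 4 without it. In the authors' own processed values it was -3.90 (p = 1.7e-05).

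In WT cells GDF15 was high at 1 and 10 nM actinomycin D and lower at 100 nM. Its mean was 11.04 ± 1.44 in untreated cells, 11.91 ± 0.32 at 1 nM, 11.87 ± 0.22 at 10 nM and 9.89 ± 0.48 at 100 nM (SD, n = 3 each). The wide spread in untreated WT cells came from 1 array at 12.70, which lay above all arrays at 1 and 10 nM, while the others lay below all of them. With all arrays neither dose passed against untreated cells: the difference was 0.88 ± 0.76 at 1 nM (adjusted p = 0.548, 9.31% of features called) and 0.83 ± 0.76 at 10 nM (0.444, 30.9% called). Against the 2 untreated WT arrays that remain among the 26, those with the lower GDF15, the difference was 1.71 ± 0.31 at 1 nM (3.26-fold, adjusted p = 0.000727, 17.3% called) and 1.66 ± 0.31 at 10 nM (3.16-fold, 0.000284, 39.8% called). With the slide as a random block over all arrays the values were 0.36 and 0.34 (adjusted p = 0.97 and 0.85). Slide 3 held the 1 nM arrays and nothing else, and no slide held both actinomycin D and untreated arrays, so drug and slide cannot be told apart in these comparisons beyond that block.

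From 10 to 100 nM in WT cells GDF15 fell, and the arrays did not overlap. The difference of 100 nM from 10 nM was -1.98 ± 0.76 (3.94-fold lower, adjusted p = 0.0261), in a comparison where 64.6% of all features were called, so that the call alone sets GDF15 apart from few genes. The call with 30 arrays was lost when WT replicate 1 or 2 at 100 nM, or replicate 2 or 3 at 10 nM, was left out (-1.96 to -1.76, adjusted p = 0.056 to 0.081). With 26 arrays it was -1.98 ± 0.28 (adjusted p = 2e-06, 71.4% called). Both doses were run on slides 1 and 5, and with the slide as a fixed block the difference was -2.05 (adjusted p = 8.6e-06, 70.4% called). The value at 10 against 1 nM was -0.05 ± 0.76 (95% interval -1.62 to 1.52, 6.04% called), and the same with 26 arrays within a narrower interval of -0.63 to 0.53 (14.7% called). Against untreated WT cells, 100 nM differed by -1.15 ± 0.76 (adjusted p = 0.187, 65.7% called), and by -0.32 ± 0.31 with 26 arrays (0.369, 68.7% called). Without scaling between arrays the 100 nM value against untreated WT cells was -1.89, and -1.09 relative to the median of all features.

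Under nutlin the value in WT cells turned with the arrays used. By label it was -0.25 ± 0.76 (adjusted p = 0.935, 0.234% of features called), from levels of 11.62, 11.76 and 8.98 under nutlin against 12.70, 10.27 and 10.15 in untreated cells. With 26 arrays it was 1.49 ± 0.34 (2.80-fold, adjusted p = 0.0255, 2.72% called), a set that lacks the untreated WT array with the highest GDF15 and the WT nutlin array with the lowest. Both nutlin arrays that remain lay above both untreated arrays that remain. Slide 2, the only one to hold nutlin and untreated arrays, held the first 2 nutlin arrays and the first untreated array, and there the value was -1.01 (adjusted p = 0.12, 13.2% called), with the lone untreated array assumed to vary like the others. Set beside nutlin in WT cells, 1 and 10 nM actinomycin D gave GDF15 values 1.12 ± 0.76 and 1.08 ± 0.76 higher by label (adjusted p = 0.457 and 0.31; 3.51% and 27.3% of features called). With 26 arrays these were 0.22 ± 0.31 (95% interval -0.43 to 0.87, 7.11% called) and 0.17 ± 0.31 (-0.48 to 0.82, 31.9% called).

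In p53KO cells GDF15 was not higher at any dose of actinomycin D than in untreated cells. Its mean was 8.66 ± 0.70 in untreated cells, 7.55 ± 0.12 at 1 nM, 7.24 ± 0.74 at 10 nM and 7.65 ± 0.40 at 100 nM (SD, n = 3 each). At each dose all 3 arrays lay below all 3 untreated arrays. The differences from untreated cells were -1.11 ± 0.76 at 1 nM (adjusted p = 0.598, 0.807% of features called), -1.42 ± 0.76 at 10 nM (0.2, 21.6% called) and -1.01 ± 0.76 at 100 nM (0.247, 66.1% called), and none passed. With 26 arrays, which lack the untreated array with the highest GDF15, the difference at 10 nM was -1.02 ± 0.31 (2.03-fold lower, adjusted p = 0.0179, 28.5% called). The differences of -0.71 ± 0.31 at 1 nM (0.237, 3.51% called) and -0.61 ± 0.31 at 100 nM (0.0858, 69.3% called) did not pass. The dose steps in p53KO cells were -0.31 ± 0.76 at 10 against 1 nM (4.88% called) and 0.40 ± 0.76 at 100 against 10 nM (64.8% called), both with intervals that span 0. With 26 arrays their intervals, -0.89 to 0.27 (13.4% called) and -0.18 to 0.98 (71.8% called), spanned 0 too.

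Nutlin in p53KO cells gave GDF15 a mean of 9.32 ± 2.18 by label, against 8.66 ± 0.70 in untreated p53KO cells (SD, n = 3 each). The value was 0.66 ± 0.76 (adjusted p = 0.779, 0.0521% of features called) and rested on the third array, at 11.83. With 26 arrays it was -0.19 ± 0.34 (95% interval -0.90 to 0.52, adjusted p = 1, 0.0347% called). Within slide 2 it was -1.39 (adjusted p = 0.025, 17.2% called), from 2 nutlin arrays and the 1 untreated array that stood apart.

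The response of GDF15 in p53KO cells minus that in WT cells was -1.99 ± 1.08 at 1 nM (adjusted p = 0.923) and -2.25 ± 1.08 at 10 nM (0.542, 0.425% of features called). For the 1 nM response limma called 0 features, with 709 at an unadjusted p under 0.05. Both values passed with 26 arrays, at -2.42 ± 0.44 for 1 nM (adjusted p = 0.00678, 1.04% called) and -2.68 ± 0.44 for 10 nM (0.00159, 2.60% called). They also passed with the slide as a fixed block, which rests on 28 arrays, at -1.99 (0.023, 1.34% called) and -2.17 (0.0098, 2.99% called). They did not pass with the slide as a random block, at -1.99 (adjusted p = 0.39) and -2.19 (0.24). At 100 nM the responses differed by 0.14 ± 1.08 (adjusted p = 0.999, 0.234% called), and by -0.29 ± 0.44 with 26 arrays (95% interval -1.21 to 0.63, 0.763% called). The nutlin responses differed by 0.91 ± 1.08 by label and by -1.68 ± 0.48 with 26 arrays (adjusted p = 0.638). In those nutlin comparisons limma called 0 features each, and 268 and 612 had an unadjusted p under 0.05.

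**Figure D3:**
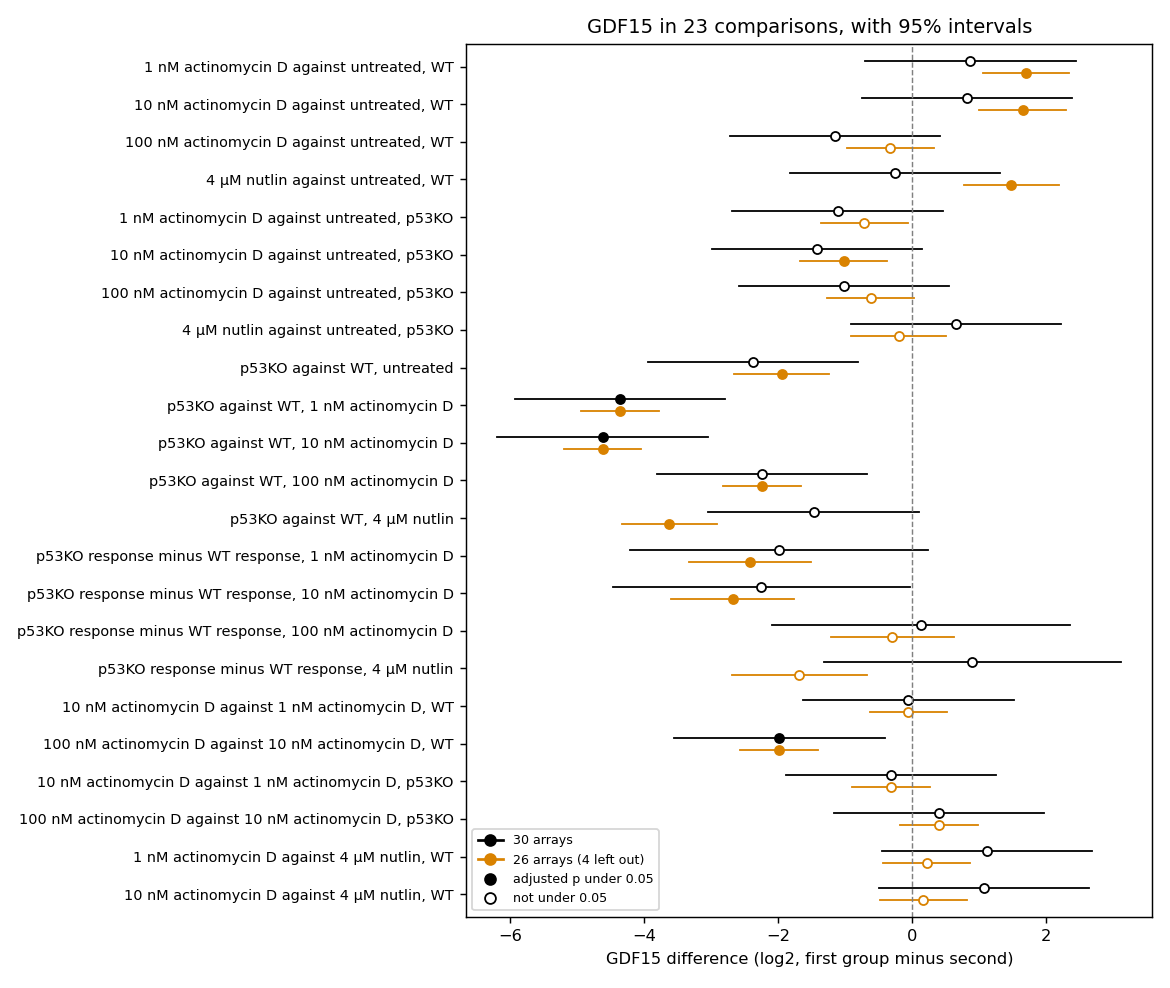
Log2 difference of GDF15 (first group named minus second) in 23 comparisons with 95% intervals, from all 30 arrays (black) and from the 26 arrays left without the 4 that stand apart (orange). Filled points have an adjusted p under 0.05; with 30 arrays these are p53KO against WT at 1 nM (-4.36) and 10 nM (-4.62) and 100 against 10 nM in WT cells (-1.98).

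Ordered by mean, the GDF15 levels of the 10 groups ran from WT cells at 1 nM (11.91) over WT at 10 nM (11.87), untreated WT (11.04), WT nutlin (10.79), WT at 100 nM (9.89), p53KO nutlin (9.32), untreated p53KO (8.66), p53KO at 100 nM (7.65) and p53KO at 1 nM (7.55) to p53KO at 10 nM (7.24). All 5 WT groups stood above all 5 p53KO groups in this order. Of neighbours in it, only untreated p53KO and p53KO at 100 nM had ranges that did not overlap. With 26 arrays untreated WT cells (10.21) moved below WT nutlin (11.69), and p53KO nutlin (8.07) below untreated p53KO cells (8.26).

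Genes known as p53 targets in cell cycle arrest and feedback stood higher in WT cells at the doses where GDF15 was highest. Of 17 tested members, 5 were called higher and 0 lower at 1 nM (median log2 change 0.98, against 0.02 over all features), and 11 were called higher and 0 lower at 10 nM (median 1.21, against 0.03). In p53KO cells at 10 nM 1 member was called higher, PLK2, and the median was 0.02. The share of all features called higher was 4.06% at 1 nM and 15.6% at 10 nM in WT cells, and 10.4% at 10 nM in p53KO cells. With 26 arrays 13, 15 and 3 members were called higher, where 8.04%, 20.2% and 14.1% of all features were. With the slide as a random block 0, 5 and 0 members were called, where 0.399%, 17% and 8.23% of features were called in either direction. MDM2, the ubiquitin ligase of p53, rose by 2.22 ± 0.47 at 1 nM (adjusted p = 0.00368) and by 2.35 ± 0.47 at 10 nM (0.000488). ZMAT3, a zinc finger protein that binds RNA, rose by 1.87 ± 0.50 at 1 nM and by 2.19 ± 0.50 at 10 nM. TP53INP1, a stress protein of autophagy and cell death, rose by 2.28 ± 0.74 at 10 nM, and SESN1, a sestrin that restrains mTORC1, by 2.00 ± 0.54. At 1 nM neither passed (1.61 ± 0.74 and 1.50 ± 0.54), and over 26 arrays both were called there (2.24 and 1.89). PLK2, a kinase of centriole duplication, and SFN, the 14-3-3 sigma protein of the G2 arrest, rose by 1.15 ± 0.19 and 1.08 ± 0.28 at 1 nM.

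CDKN1A, the cyclin-dependent kinase inhibitor p21, showed the same dependence on the 4 arrays as GDF15. Its change in WT cells was 1.29 ± 0.71 at 1 nM (adjusted p = 0.287) and 1.34 ± 0.71 at 10 nM (0.16), and with 26 arrays 1.84 (7.54e-06) and 1.89 (1.34e-06). On the first untreated WT array CDKN1A stood at 13.91, against 12.27 and 12.22 on the other untreated WT arrays. TP53I3, a quinone oxidoreductase induced by p53, rose in WT cells by 2.86 ± 0.85 at 1 nM (adjusted p = 0.033) and by 3.71 ± 0.85 at 10 nM (0.0017) with all arrays. Like GDF15, TP53I3 was lower in p53KO than in WT cells at 1 nM (-4.29 ± 0.85) and 10 nM (-4.40 ± 0.85).

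Among p53 targets chosen as secreted products, a list of 16 that includes GDF15 and, as its 1 called member that is not secreted, SERTAD1, 10 members were tested. In p53KO cells 2 were called higher at 10 nM (median 0.23), and in WT cells 3 were called higher at 1 nM and 6 at 10 nM, with none lower (medians 0.80 and 1.54), where 10.4%, 4.06% and 15.6% of all features were called higher. A random block for the slide left 0 called at 10 nM in p53KO cells and 0 at 1 nM in WT cells, with 1 and 3 at an unadjusted p under 0.05, and 6 at 10 nM in WT cells. Under that block 8.23%, 0.399% and 17% of all features were called in either direction. SERPINB5, the serpin maspin, rose by 1.07 ± 0.39 at 10 nM in p53KO cells (adjusted p = 0.0481), and by 2.37 ± 0.39 at 1 nM (0.000345) and 2.98 ± 0.39 at 10 nM (4.07e-06) in WT cells. PGF, a growth factor of the VEGF family, rose by 1.36 ± 0.25 at 1 nM and 2.03 ± 0.25 at 10 nM, and THBS1, a matrix protein that restrains blood vessel growth, by 1.42 ± 0.44 at 1 nM. SERTAD1, a transcriptional coregulator, and SEMA3B, a secreted semaphorin, rose by 1.71 ± 0.45 and 1.69 ± 0.36 at 10 nM in WT cells. ISG15, a ubiquitin-like protein, rose by 0.76 ± 0.25 at 10 nM in p53KO cells. With 26 arrays GDF15 joined the called members in WT cells at both doses, where 8 and 9 of the 10 were called higher (medians 1.30 and 1.72). There 8.04% and 20.2% of all features were called higher. In p53KO cells at 10 nM 4 were called higher and 1 lower, GDF15, over 26 arrays (median 0.44). Of all features, 14.1% were called higher and 14.4% lower there.

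Genes of the integrated stress response, the other known route to GDF15, were more often called lower than higher at these doses. In WT cells 11 of 21 tested members were called lower and 0 higher at 1 nM (median -0.84), and 12 lower and 1 higher at 10 nM (median -0.92). A random slide block left 2 and 13 called lower, where 0.399% and 17% of all features were called in either direction. In p53KO cells at 10 nM 6 were called lower and 0 higher (median -0.64). The share of all features called lower was 5.25%, 15.4% and 11.2%. The first untreated arrays, on which this list was high, enter these values. With 26 arrays the counts were 3 higher and 10 lower at 1 nM, 5 higher and 10 lower at 10 nM, and 2 higher and 8 lower in p53KO cells at 10 nM. There 9.29%, 19.6% and 14.4% of all features were called lower, and 8.04%, 20.2% and 14.1% higher. The medians over 26 arrays were nearer 0, at -0.50, -0.44 and -0.39. ASNS, asparagine synthetase, fell by 1.82 ± 0.31 at 1 nM (adjusted p = 0.000635) and by 1.67 ± 0.31 at 10 nM (0.000269) in WT cells, and PHGDH, the entry enzyme of serine synthesis, fell by 1.48 ± 0.19 and 1.60 ± 0.19. HERPUD1, a protein of endoplasmic reticulum degradation, fell by 1.14 ± 0.29 at 1 nM in WT cells, and SLC7A11, the cystine transporter, by 1.13 ± 0.29. HSPA5, the chaperone BiP, fell by 1.70 ± 0.22 at 10 nM in p53KO cells. In WT cells it fell by 1.60 ± 0.22. TRIB3, a pseudokinase that feeds back on ATF4, fell by 1.01 ± 0.26 at 1 nM and by 0.96 ± 0.26 at 10 nM in WT cells. These values shrank over 26 arrays and stayed called, to -1.18 and -1.04 for ASNS, -0.50 and -0.44 for TRIB3, -0.68 for HERPUD1 and -0.56 for SLC7A11.

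Of 12 tested regulators of the GDF15 gene, 3 were called lower and 0 higher at 1 nM in WT cells, 4 lower and 1 higher at 10 nM in WT cells, and 1 lower at 10 nM in p53KO cells, where 9.31%, 30.9% and 21.6% of all features were called in either direction. The counts under a random slide block were 0, 4 lower and 1 lower, with 4 members at an unadjusted p under 0.05 at 1 nM, and over 26 arrays 1 higher and 2 lower at each dose in WT cells and 1 higher and 1 lower in p53KO cells. Of all features, 0.399%, 17% and 8.23% were called under that block, and 17.3%, 39.8% and 28.5% over 26 arrays. ATF4 fell by 0.80 ± 0.19 at 10 nM in p53KO cells (adjusted p = 0.00336), and it fell by 0.75 ± 0.19 at 1 nM (0.0124) and fell by 1.00 ± 0.19 at 10 nM (0.000267) in WT cells. EGR1, an immediate early zinc finger factor, fell by 1.55 ± 0.37 at 10 nM in WT cells (0.00233). XBP1, a factor of the unfolded protein response, fell by 1.00 ± 0.31 at 1 nM, and SP1, a general GC-box activator, by 0.69 ± 0.16. Over 26 arrays XBP1 was no longer called (-0.62, adjusted p = 0.0601), and SP1 was at -0.46. ATF3, a stress-induced AP-1 family factor, was the member called higher, by 1.71 ± 0.66 at 10 nM in WT cells (0.0496), and by 2.79 ± 0.26 with 26 arrays (1.03e-07), but not with the slide as a random block. At 100 nM, where GDF15 was lower than at 10 nM in WT cells, ATF3 rose by 1.90 ± 0.66 in p53KO and by 2.15 ± 0.66 in WT cells (2.94 and 3.23 over 26 arrays). DDIT3 did not pass at 1 nM (-0.84 ± 0.49, adjusted p = 0.317) or 10 nM (-0.81 ± 0.49, 0.221) in WT cells, and it stood at 10.08 on the first untreated p53KO array and 10.48 on the first untreated WT array, against 7.31 to 8.76 on the other 28 arrays. Over 26 arrays the direction of DDIT3 turned, to 0.11 at 1 nM and 0.15 at 10 nM (adjusted p = 0.713 and 0.515).

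The receptor side could be seen only in part. GFRAL did not pass the detection filter, and RET, which GFRAL needs to signal, did not pass the test in WT cells (-0.52 ± 0.19 at 1 nM, adjusted p = 0.0864, and -0.31 ± 0.19 at 10 nM, 0.235), though over 26 arrays it was called at 1 nM (-0.59, adjusted p = 0.0358). RET was dim on every array, at levels of 4.31 to 5.67, so these values lie near background. Of the convertases, PCSK7 rose by 0.74 ± 0.13 at 10 nM in p53KO cells, and by 0.55 ± 0.13 at 1 nM and 0.79 ± 0.13 at 10 nM in WT cells. PCSK6 fell by 0.40 ± 0.14 in p53KO cells and fell by 0.48 ± 0.14 in WT cells at 10 nM, and FURIN did not pass (0.47 ± 0.25 at 10 nM in WT cells, adjusted p = 0.166, and 0.27 over 26 arrays). NRTN, neurturin, a GDNF family ligand, fell by 1.38 ± 0.28 at 10 nM in p53KO cells, and it fell by 1.59 ± 0.28 at 1 nM and fell by 1.50 ± 0.28 at 10 nM in WT cells. In all, 3 of 9 tested members were called at 10 nM in p53KO cells, and 2 at 1 nM and 3 at 10 nM in WT cells, where 21.6%, 9.31% and 30.9% of all features were called. Under a random slide block 2, 0 and 2 were called, with 2 at an unadjusted p under 0.05 at 1 nM, where 8.23%, 0.399% and 17% of all features were called. Of 33 TGF-beta superfamily ligands 11 passed the filter, GDF15 included. At 1 nM in WT cells limma called 0 of the 11, with 1 at an unadjusted p under 0.05, and at 10 nM only TGFB3, which rose by 1.00 ± 0.14 in p53KO and by 0.82 ± 0.14 in WT cells. That is 1 of 11 where 30.9% of all features were called in WT cells. Some of the 11 were dim, such as GDF9 and BMP6 at 4.56 to 4.63 in WT cells at 10 nM. A count of calls among such members says little about the family. Over 26 arrays 3 members were called higher at 1 nM in WT cells, and 3 higher and 1 lower at 10 nM, GDF15 among the higher at both doses. There 17.3% and 39.8% of all features were called in either direction. INHBB, an activin beta subunit, was at -0.11 ± 0.16 and BMP4, a bone morphogenetic protein, at 0.24 ± 0.29 at 10 nM in WT cells, and neither passed. BMP4 was called over 26 arrays at 1 nM (0.48, adjusted p = 0.0371), against 0.41 ± 0.29 with all arrays.

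The genes whose levels followed GDF15 most closely over the 30 arrays were chosen by Pearson correlation without use of the labels, and are given as a description. Of the 11 features that followed it most closely, 1 had no gene symbol and is not named. The highest were CDKN1A (r = 0.96), DDB2, a damage sensor of nucleotide excision repair (0.93), RINL (0.92), CASP4, an inflammatory caspase (0.92), NTPCR (0.92), C6orf58 (0.92), ACTA2, smooth muscle actin (0.91), NINJ1, a protein of membrane rupture (0.91), SESN1 (0.91) and EHF, an epithelial ETS factor (0.91). The lowest were PTDSS1, a phosphatidylserine synthase (-0.95), TPI1, a glycolytic enzyme (-0.92), and KCNRG (-0.91). Over 26 arrays the r of these 13 genes was 0.91 to 0.97 for the highest and -0.95 to -0.90 for the lowest. The arrays fall into 2 genotypes, which differ in GDF15, so r within a genotype is given too. Within the 15 arrays labelled p53KO, r with GDF15 was 0.88 for CDKN1A, 0.80 for DDB2 and 0.87 for CASP4, and within the 15 labelled WT it was 0.96, 0.84 and 0.62. Each of these sets holds the nutlin replicate 3 array, which scored as the other genotype. Over the 13 arrays of each genotype left without the 4 arrays, a comparison chosen after seeing the data, r was -0.13, -0.06 and -0.16 in p53KO cells and 0.99, 0.80 and 0.29 in WT cells. For the other highest genes it ran from -0.16 (NTPCR) to 0.51 (ACTA2) and 0.59 (C6orf58) in p53KO cells. In WT cells it ran from 0.44 (ACTA2) to 0.96 (NINJ1) for these. For PTDSS1, TPI1 and KCNRG it was -0.545, -0.02 and -0.64 in p53KO cells and -0.84, -0.91 and -0.40 in WT cells. In WT cells CASP4 was at -0.16 ± 0.81 at 1 nM and 0.24 ± 0.81 at 10 nM, and over 26 arrays at 0.27 (adjusted p = 0.421) and 0.67 (0.0144). Its difference between untreated p53KO and untreated WT cells was -3.79 ± 0.81.

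In WT cells CDKN1A and GDF15 moved together array by array, and both were displaced on the third nutlin arrays of both genotypes. On the array labelled p53KO nutlin replicate 3 CDKN1A stood at 13.89, against 10.38 on each of the other p53KO nutlin arrays. On the array labelled WT nutlin replicate 3 it stood at 10.62, against 13.78 and 13.85 on the other WT nutlin arrays. For the always-named stress response genes the r with GDF15 over 30 arrays was 0.14 for ATF4, -0.29 for DDIT3, 0.36 for ATF3, 0.05 for ASNS and 0.31 for TRIB3, and over 26 arrays -0.03, -0.84, 0.33, -0.23 and 0.15. DDIT3 was the gene among these whose r changed most when the 4 arrays were left out. These values mix the genotypes. Within the 13 arrays of a genotype left without the 4, r for the same genes, in the same order, differed. It was 0.48, -0.50, -0.265, 0.42 and 0.38 in p53KO cells, and -0.17, -0.48, 0.01, -0.83 and 0.20 in WT cells. Other genes of the stress response ran from -0.30 (CEBPG) to 0.76 (NUPR1) and 0.88 (DDIT4) over 30 arrays. Over 26 arrays these were -0.48, 0.72 and 0.88. Within the 13 arrays of a genotype DDIT4 was at 0.51 in p53KO and 0.30 in WT cells. Of the 10 most alike genes, 2 had a p53 half-site match in the same promoter window (6.63% of all promoters) and 6 an SP1 match (44.95%). An E-box was held by 4 (68.7%), an EGR1 match by 1 (9.43%), and the other 3 motifs by 0. Whether these counts differ from the shares was not tested.

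**Figure D4:**
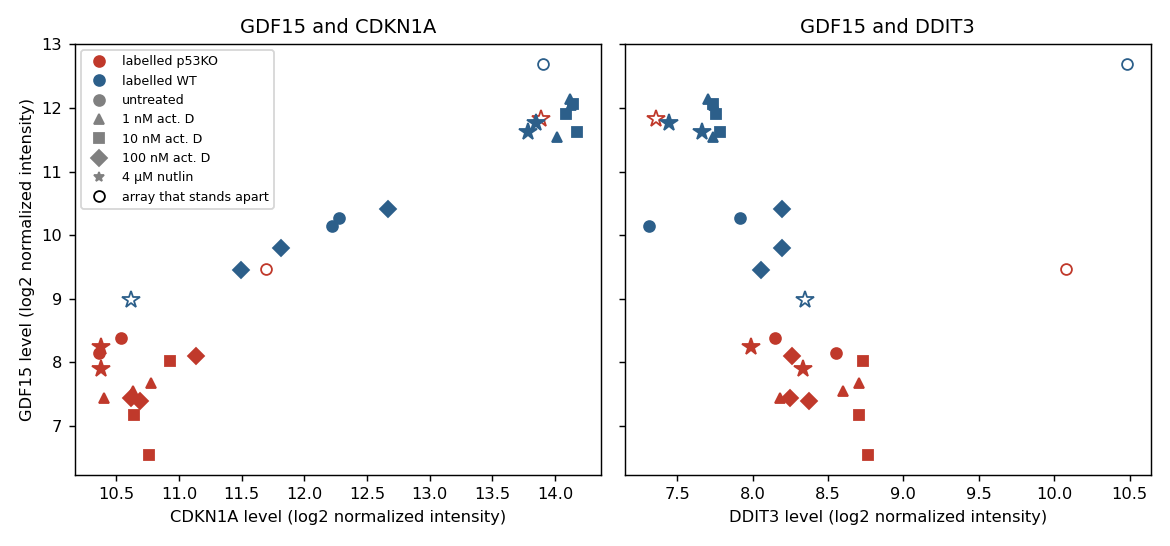
GDF15 level (vertical axes, log2 normalized intensity) against the levels of CDKN1A (left) and DDIT3 (right) on the 30 arrays, coloured by labelled genotype, with symbols for treatment and open symbols for the 4 arrays that stand apart. GDF15 and CDKN1A lie along 1 rising band (r = 0.96), while the first untreated arrays, at DDIT3 levels of 10.08 and 10.48, lie to the right of all others.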

How the data were processed

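The authors deposited a raw table made with BeadStudio, per the submitters' processing notes, of unstated version. It gives, per the file headers, the mean bead intensity on a linear scale, a detection p-value, a bead number and a bead standard error per probe and array. Their processed table holds a second intensity, with the same median, 10.195, on every array, by a method that the sources used here do not give. Columns of 26 arrays of other samples were not used. Of 22177 probes, 21101 had a symbol. Raw intensities were normalized with limma 3.58.1 in R 4.3.3 (neqc, offset 16, log2). Probes with a detection p under 0.01 on all 3 arrays of a group were kept (12896), the brightest per gene, which gave 11526 features. One linear model with a mean per group (20 residual degrees of freedom) gave 23 contrasts, with Benjamini-Hochberg adjustment over all features of a contrast. The fit was tested on simulated data. Same-numbered arrays of the genotypes deviated together within a treatment (correlation of deviations at least 0.23 in untreated and actinomycin D pairs, but 0.01, -0.44 and -0.30 for nutlin), not treatments to untreated cells. The number of arrays limits the precision. The probe and gene lists were chosen with earlier results of these data known. Named genes are up to 4 called list members with the largest change, 9 genes always named and the genes most like GDF15. The exact test without the 4 arrays, and the correlations within a genotype without them, were added after seeing the data.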

Additional observations from a re-analysis of the deposited data

Results flagged for a closer look

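The mean response of GDF15 to actinomycin D had opposite signs in the genotypes at both low doses, though with 30 arrays none of these responses passed. At 1 nM the p53KO minus WT difference in response was -1.99, and at 10 nM it was -2.25 (log2). At both doses every p53KO array lay below the mean of untreated p53KO cells, and every WT array above the mean of untreated WT cells. The first untreated WT array, at 12.70, lay above all WT arrays of both doses. The difference itself, tested in limma's model, did not pass with 30 arrays, nor with the slide as a random block (-1.99 and -2.19, adjusted p = 0.39 and 0.24), and passed with 26 arrays and with the slide as a fixed block. The 26 arrays lack the untreated array with the highest GDF15 of each genotype.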

How the results depend on the processing

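Of 238 recomputed GDF15 values, 195 kept their direction and side of the threshold, 2 kept direction but lost the call, 25 gained one and 16 changed sign, leave-one-out values (162) apart. No background correction and the authors' processed values changed no direction or call. Scaling to the 75th percentile gave -0.46 for the 100 nM difference in response, 0.01 for 10 against 1 nM in WT cells and -1.45 for 100 against 10 nM in WT cells, no longer called; without the filter on dim probes the last was -1.98, also not called.
Leaving out the third nutlin arrays gave calls for 100 nM in WT cells (-1.15), 10 nM in p53KO cells (-1.42) and p53KO against WT untreated (-2.37), at 100 nM (-2.24) and under nutlin (-3.62), and turned nutlin in p53KO (-0.59), nutlin in WT (0.65) and their difference (-1.25). Fewer arrays there also lowered the shared spread. Leaving out the first untreated arrays turned nutlin in WT cells (0.58) and the 100 nM difference in response (-0.29). Without the 4 arrays calls were gained for 1 nM (1.71) and 10 nM (1.66) in WT cells, 10 nM in p53KO cells (-1.02), p53KO against WT untreated (-1.94), at 100 nM (-2.24) and under nutlin (-3.62), and the differences in response at 1 nM (-2.42) and 10 nM (-2.68). The sign turned for nutlin in p53KO (-0.19) and WT cells (1.49) and for the differences in response at 100 nM (-0.29) and under nutlin (-1.68).
With a replicate block by pair of a p53KO and a WT array, the 1 and 10 nM genotype differences were -4.36 (adjusted p = 0.011) and -4.62 (0.0038), and this block or one by number changed no call over 30 arrays. The pair block without the 4 arrays gave -1.94, -2.24, -3.62, -2.42, -2.68, -0.29 and -1.68 where the plain fit did, with the same calls. With the slide as a random block (correlation 0.501) the genotype differences in untreated cells (-2.37) and at 100 nM (-2.29) were called and nutlin in p53KO cells turned (-0.57). With it as a fixed block (28 arrays) the genotype differences untreated (-2.37), at 100 nM (-2.31) and under nutlin (-3.62) and the differences in response at 1 nM (-1.99) and 10 nM (-2.17) were called, and that under nutlin turned (-1.25); steps from 1 to 10 nM could not be estimated. Within slide 2 nutlin in p53KO cells turned (-1.39).
Leaving out single arrays gave -2.24 to -1.76 for 100 against 10 nM in WT cells, -0.69 to 0.58 for the 100 nM difference in response, -0.70 to 0.04 and -0.23 to 0.07 for 10 against 1 nM in p53KO and WT cells, -0.59 to 1.37 and -0.73 to 0.65 for nutlin in p53KO and WT cells, and -0.35 to 1.62 for their difference. The 1 and 10 nM genotype calls held in each case.
Counts of called members are given where they moved by more than 1.5 times. Without the 4 arrays they were 13 at 1 nM WT and 3 in p53KO of the arrest and feedback targets, 8 and 5 of the secreted p53 targets, 10 in p53KO of the stress response, 3, 4 and 3 of the TGF-beta ligands, and 3 at 10 nM WT and 2 in p53KO of the regulators. With the slide as a random block these were 0, 5 and 0 of the arrest targets, 0 at 1 nM WT and 0 in p53KO of the secreted targets, 2 at 1 nM WT of the stress response, and 0 at 1 nM WT of the regulators and of the receptor and processing list. Of all features, 17.3%, 39.8% and 28.5% were called without the 4 arrays at 1 nM WT, 10 nM WT and 10 nM p53KO. Under the block the shares were 0.399%, 17% and 8.23%. Except where arrays were left out, the cause was not tested. No second GDF15 probe exists to set in its place. GDF15 was detected on every array, and the spread between arrays sets the standard errors.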
